A study of Mus musculus with 24 samples.

Results

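The mouse microRNA precursors mmu-mir-221 and mmu-mir-222, called mir-221 and mir-222 from here on, were followed across all libraries of a small RNA sequencing study of microglia. They were taken as the rows of those names in the deposited count tables, which gave 2 of the 1187 precursors listed. Small RNA was measured in BV2 cells, an immortalised mouse microglial line, and in extracellular vesicles (EVs) shed by them. The 24 libraries form 8 groups of 3, and every group came from this 1 cell line. Both cells and EVs had an untreated control group and a group for each of 3 treatments, given for 72 h. The treatments were lipopolysaccharide (LPS, the bacterial cell wall component sensed by Toll-like receptor 4) at 100 ng/mL, interleukin-10 (IL-10, an anti-inflammatory cytokine) at 50 ng/mL and transforming growth factor beta (TGF-β) at 50 ng/mL. RNA was eluted in 40 µL for cells and in 20 µL for EVs. Nothing in the labels shows that libraries of 1 group are separate cultures, and the spread that p-values rest on may therefore be technical.

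The precursors mir-221 and mir-222 lie next to each other on the X chromosome and are known to be processed from a shared primary transcript. A microRNA guides Argonaute proteins to messenger RNAs mainly through its seed, the bases near its 5′ end, and lowers their translation and stability. The mature miR-221-3p and miR-222-3p are best known for repressing Cdkn1b (p27) and Cdkn1c (p57), inhibitors of the cyclin-dependent kinases that drive entry into S phase, and the receptor tyrosine kinase Kit. In macrophages both are known to respond to LPS and have been linked to tolerance to repeated LPS.

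The mature sequences are shown because they place both members in 1 seed family, so that their counts bear on the same class of target sites. They are RefSeq sequences on GRCm38.p6, printed 5′ to 3′ with the seed (bases 2 to 8) in capitals.
miR-221-3p: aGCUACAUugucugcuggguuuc
miR-222-3p: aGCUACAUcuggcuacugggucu
miR-1928: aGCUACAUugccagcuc
miR-221-5p: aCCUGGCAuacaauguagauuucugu
The first 8 bases of miR-221-3p and miR-222-3p are the same, and 11 of the 23 positions of the 2 sequences are identical when they are aligned from the 5′ end. Among 1738 mature mouse sequences in the table, miR-1928 was the other one with this seed. It was at 0 counts in the 12 cell libraries and had 1 count in 1 LPS EV library. Among the precursors carrying this seed, nearly all counts were thus those of mir-221 and mir-222, whichever arm they came from. The seed of miR-221-5p, from the other arm of the mir-221 hairpin, was shared with 0 other sequences.

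The hairpins are shown because the deposited tables count reads per precursor and do not separate the arms. The 3p mature sequence is in capitals, and both hairpins are on the minus strand.
mir-221: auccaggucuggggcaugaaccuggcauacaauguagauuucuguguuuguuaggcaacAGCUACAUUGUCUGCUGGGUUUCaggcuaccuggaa
mir-222: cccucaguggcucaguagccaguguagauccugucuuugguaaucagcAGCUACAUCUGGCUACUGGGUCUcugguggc
The mir-221 hairpin covers chrX:19146294-19146388 and the mir-222 hairpin chrX:19146893-19146971, with 504 bases between them. No other RefSeq gene overlaps either hairpin, so both are intergenic in this annotation. The nearest gene at higher coordinates, Gm14636, is 9499 bases away. The mature miR-221-3p lies at chrX:19146307-19146329, miR-222-3p at chrX:19146901-19146923, miR-221-5p at chrX:19146344-19146369 and miR-1928 at chr1:74206562-74206578.

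Totals ran from 185400 to 409969 counts in the cell libraries and from 15071 to 28727 in those of EVs. The precursor mir-6236 took 49.9% to 79.5% of the counts of an EV library and 0.574% to 1.63% of a cell library. Shares of other precursors in EVs therefore depend on how much of the library mir-6236 took. Of the myeloid markers, mir-142a, mir-223 and mir-511 had counts in every cell group, while in the 4 EV groups mir-142a had 26 to 153 summed counts and mir-223 and mir-511 were at 0. Summed over the 4 markers of the list, myeloid CPM ran from 2654 to 4348 in cell libraries and from 298.9 to 2977 in EV libraries. Of the 7 epithelial markers, 1 to 4 had counts in each EV group and 3 or 4 in each cell group, and their summed CPM was 208.9 to 9445 in EV libraries and 6.93 to 59.9 in cell libraries. The high EV values came from mir-203 (29 to 215 counts a group, against 0 to 2 in cells), while mir-200c had 9 to 17 counts in each cell group and 0 to 2 in each EV group, and mir-200a was at 0 throughout. For the 6 muscle markers the summed CPM was 193 to 1575 in EV libraries and 0 to 16.2 in cell libraries, with mir-133a-1 at 0 throughout. For the 8 neuron markers it was 0 to 4915 in EV and 88.2 to 326 in cell libraries. The members went different ways. Each mir-128 copy had 62 to 110 summed counts a cell group and 0 to 8 an EV group. Each mir-124 copy had 18 in control EVs, 0 to 2 in each other EV group and 0 to 7 in each cell group. Each mir-9 copy had 14, 0 to 1 and 0 to 3. Copies had equal counts in control EVs, so the sum may hold the same reads more than 1 time. The 5 red cell markers stood at 0 to 1411 in EV and 0 to 11.4 in cell libraries. In EV groups mir-144 had 0 to 25 summed counts and mir-486a 0 to 12. Against this, mir-451a had 1 count in LPS EVs and 0 elsewhere, and mir-451b was at 0 throughout. The 2 endothelial markers stood at 0 to 1263 in EV and 65.6 to 185 in cell libraries, where mir-126b had 1 count in TGF-β cells and 0 elsewhere. The liver marker mir-122 was at 0 in EVs. The part of RNA of these types in the EV results was not tested.

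In cells, the mean levels of both members were highest after LPS, followed by IL-10 and control, and lowest after TGF-β. For mir-222 all 3 treatments passed the test against control, and for mir-221 only LPS did. Levels are given as normalised CPM, counts scaled by library total and by a TMM factor, which is a factor that aligns the bulk of precursors between libraries. Since these are bulk samples, fewer cells making a microRNA and less of it per cell cannot be told apart.

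The 3 control libraries held 633, 646 and 782 normalised CPM of mir-221 (686.7 ± 82.7, SD, n = 3), from 231, 276 and 259 counts. After LPS mir-221 stood at 2346, 2199 and 1963 (2169 ± 193), from 459, 347 and 361 counts. Every LPS library was above every control library. The difference was 1.66 ± 0.14 (log2 fold change ± SE), or 3.16-fold (edgeR quasi-likelihood test, Benjamini-Hochberg adjusted p = 8.97e-10).

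For mir-222 the control libraries held 726, 816 and 755 normalised CPM (766 ± 46.2, n = 3) and the LPS libraries 3761, 3575 and 3877 (3737 ± 153). The lowest LPS library was thus far above the highest control library. The log2 fold change was 2.29 ± 0.13, or 4.88-fold (edgeR adjusted p = 2.56e-12). Both of the 2 members were called higher, where 20.8% of the 259 precursors tested were, and both had groups that did not overlap, as 25.1% of all did in this direction. By fold change mir-222 ranked 9 and mir-221 ranked 16 of 259. The treatment comparisons share their controls, so the values for IL-10 and TGF-β are set beside those for LPS and are not independent of them.

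After IL-10 the libraries of mir-222 stood at 1358, 1213 and 1323 normalised CPM (1298 ± 75.9, n = 3), all above the control libraries. This was a log2 fold change of 0.76 ± 0.13, or 1.70-fold (edgeR adjusted p = 0.000371). For mir-221 the IL-10 libraries stood at 820, 967 and 915 (901 ± 74.6), also above every control library, but the change did not pass the threshold. Its log2 fold change was 0.39 ± 0.14, with a 95% interval of 0.08 to 0.70 and an edgeR adjusted p of 0.0694. On plain CPM, without TMM factors, the groups overlapped, at 852 to 955 after IL-10 and 673 to 897 in control. So 1 of the 2 members was called higher, where 5.41% of the precursors tested were, and 22.4% of all had groups that did not overlap in this direction. The precursor mir-222 ranked 8 of 259 by fold change and 5 by p.

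After TGF-β the libraries of mir-222 held 370, 329 and 410 normalised CPM (369.9 ± 40.5, n = 3), all below the control libraries. Its log2 fold change was -1.05 ± 0.14, or 2.07-fold lower (edgeR adjusted p = 4.14e-05), and its p was the lowest of the 259 precursors in this comparison. For mir-221 the libraries held 512, 521 and 475 (503 ± 24.5), again below every control library. The log2 fold change of mir-221 was -0.45 ± 0.14, with a 95% interval of -0.77 to -0.12, and missed the threshold (edgeR adjusted p = 0.0600). It passed under 7 other settings, with DESeq2 size factors at -0.51 and with library totals alone at -0.61, and passed without control library 2 at -0.56. So 1 of the 2 members was called lower, where 3.09% of the precursors were, and 13.1% of all had groups that did not overlap in this direction.

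**Figure D1:**
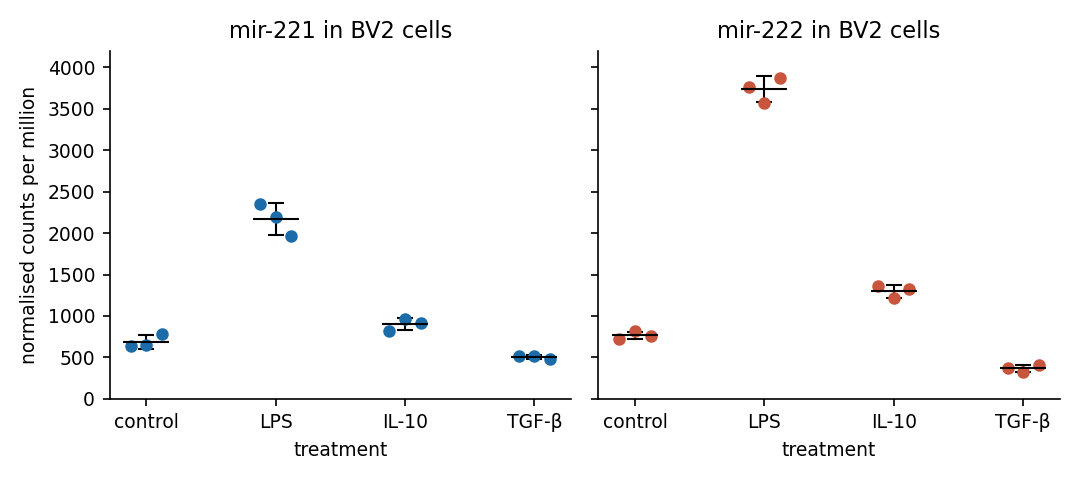
Normalised CPM (linear axis from 0) of mir-221 and mir-222 in each of the 12 cell libraries by treatment, with points for libraries, a long line for the group mean and error bars for its SD (n = 3). For mir-222 the LPS libraries sit at 3575 to 3877 and the TGF-β libraries at 329 to 410, with control and IL-10 between them.

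Between treatments, both members were called in all 3 comparisons. LPS was above IL-10 by a log2 fold change of 1.27 ± 0.13 for mir-221 (edgeR adjusted p = 5.98e-08) and 1.52 ± 0.13 for mir-222 (2.22e-09), where 20.5% of precursors were called higher and 25.1% had groups that did not overlap in this direction. LPS was above TGF-β by 2.11 ± 0.14 for mir-221 (edgeR adjusted p = 2.00e-11) and by 3.33 ± 0.14, or 10.1-fold, for mir-222 (4.01e-15), where 18.1% were called higher and 22.0% did not overlap. Between IL-10 and TGF-β, the cytokines given at the same dose, mir-221 was higher after IL-10 by 0.84 ± 0.14 (edgeR adjusted p = 0.000147). The same difference for mir-222 was 1.81 ± 0.14, or 3.50-fold (edgeR adjusted p = 1.03e-09), rank 2 of 259 by fold change. There 8.11% of precursors were called higher and 12.4% had groups that did not overlap in this direction. In the order LPS, IL-10, control and TGF-β, each neighbouring pair was called for mir-222. For mir-221 the step from LPS to IL-10 was called and the steps from IL-10 to control and from control to TGF-β were not.

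**Figure D2:**
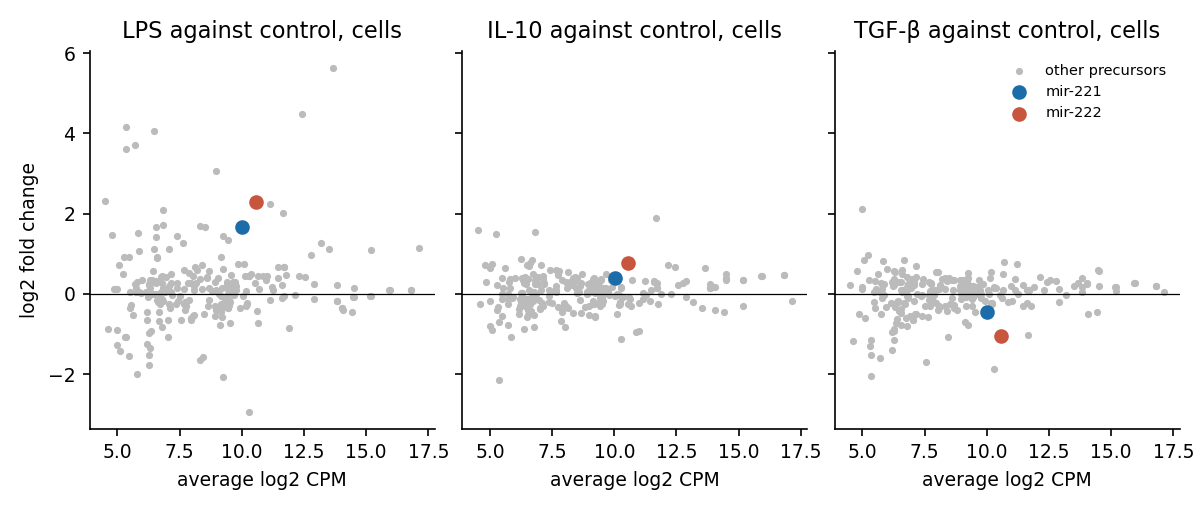
Log2 fold changes against control in cells (1 panel a treatment) plotted over mean level in log2 CPM for the precursors tested, with mir-221 and mir-222 marked. The members lie at 1.66 and 2.29 with LPS, 0.39 and 0.76 with IL-10, and -0.45 and -1.05 with TGF-β.

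The balance of the 2 members within a library does not depend on how libraries are scaled. Sequence and capture set the level of 1 precursor against another, so the ratio was read only as a change between groups. The log2 ratio of mir-222 to mir-221 counts (0.5 added to each) was 0.20, 0.34 and -0.05 in the control libraries, with a mean of 0.16 ± 0.20 (SD, n = 3). After LPS it was 0.68, 0.70 and 0.98 (0.79 ± 0.17), above every control library. In the IL-10 libraries it was 0.73, 0.33 and 0.53 (0.53 ± 0.20), which overlapped both control and LPS. After TGF-β it was -0.47, -0.66 and -0.21 (-0.45 ± 0.23), below every library of the other 3 groups.

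The ratio differed over the 4 groups (F = 21.7, exact permutation test over 12 libraries, p = 0.00039). Between pairs of groups, 3 libraries against 3 cannot give an exact p below 0.1. TGF-β lay below control by 0.61, below LPS by 1.23 and below IL-10 by 0.97, and LPS above control by 0.63, each at that limit (exact two-sided p = 0.1, adjusted p = 0.18 over 7 pairs). IL-10 minus control was 0.37 (exact p = 0.2) and IL-10 minus LPS was -0.26 (exact p = 0.3), with overlapping libraries in both. In counts summed over a group, mir-222 made up 53.0% of the pair in control (exact Clopper-Pearson 95% interval 50.5% to 55.5%), 63.3% in the LPS group (61.6% to 65.0%), 59.3% in the IL-10 group (57.2% to 61.3%) and 42.6% in the TGF-β group (39.2% to 46.0%). These intervals, and all others of shares, cover counting error only and leave out the spread between libraries. They take each count as separate, so unmarked PCR copies would make them too narrow.

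**Figure D3:**
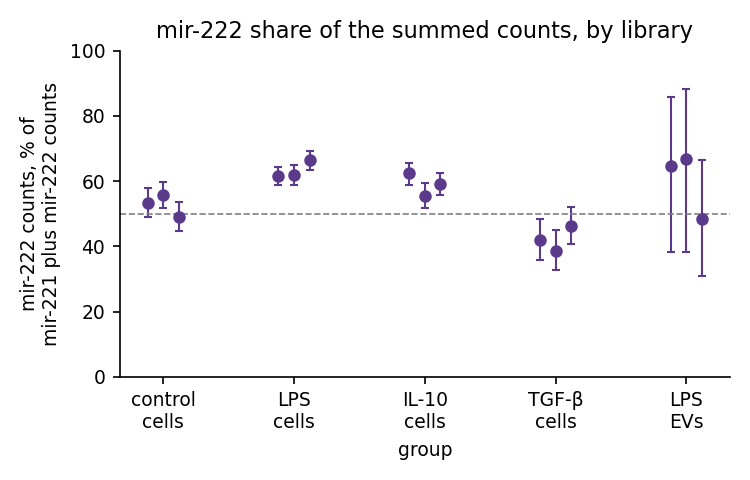
Counts of mir-222 as a percent of mir-221 plus mir-222 counts, by group, with a point for each library, error bars for exact 95% counting intervals and a dashed line at equal counts. The 3 TGF-β cell libraries lie between 38.7% and 46.3%, below all other cell libraries, and the LPS cell libraries between 61.6% and 66.4%.

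As a share of all counts, the pair made up 0.167% ± 0.0125 of a control cell library (SD, n = 3), 0.508% ± 0.0148 with LPS, 0.218% ± 0.0217 with IL-10 and 0.0901% ± 0.0093 with TGF-β. Ranked by mean share among the precursors with counts, mir-222 went from rank 78 of 550 in control to 34 of 518 after LPS, 47 of 525 after IL-10 and 130 of 514 after TGF-β. For mir-221 the ranks were 91, 45, 65 and 120. So mir-222 stood above mir-221 in these ranks in 3 of the cell groups and below it after TGF-β.

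Over the 12 cell libraries, the precursors most like each member were ranked by Pearson correlation of log2 CPM with 258 others. These libraries fall into 4 groups, so the correlation mainly describes group levels. For mir-221 the closest was mir-155, an inflammatory microRNA (r = 0.972), then mir-222 (0.970), mir-139 (0.965), mir-29b-1 (0.951) and mir-146b (0.939). For mir-222 the closest was mir-221, then mir-139 (0.936), mir-7b (0.930), mir-7a-2 (0.930) and mir-29b-1 (0.915). Under DESeq2 size factors and under library totals, the first place for mir-221 passed to mir-222.

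A like pattern did not mean a like size of change. The changes of mir-155 were 4.06, 0.73 and -0.43 (log2, LPS, IL-10 and TGF-β against control), against 1.66, 0.39 and -0.45 for mir-221. Those of mir-139, known from its host gene Pde2a, were 1.66, 0.37 and -0.37. Opposite patterns were led by mir-700, with r of -0.965 to mir-221 and -0.977 to mir-222 and log2 changes of -1.64, -0.47 and 0.39.

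Precursors that NF-kB is known to induce downstream of Toll-like receptor 4 were listed as the pathway by which LPS is best known to act. Of the 7 on this list 5 were tested, and 5 rose after LPS, with a median log2 change of 4.06 beside 0.09 over all 259 tested, of which 20.8% rose and 11.2% fell. These were mir-146a at 5.63, mir-146b at 4.49, mir-155 at 4.06, mir-132 at 2.32 and mir-21a at 2.02. Both members, at 1.66 and 2.29, lay below the median of the list. After IL-10, 3 of the 5 rose (median 0.73, beside 0.05 over all, of which 5.41% rose and 2.32% fell), led by mir-21a at 1.90, a larger value than the 0.76 of mir-222. After TGF-β, 0 rose and 1 fell (median 0.23, beside 0.09 over all, of which 3.47% rose and 3.09% fell), namely mir-21a at -1.03, next to -1.05 for mir-222.

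Because miR-221-3p and miR-222-3p repress p27 and p57, precursors that act on the same step from G1 to S phase were listed too. Of 9 that favour this step, all from the mir-17 family clusters, 3 rose after LPS and 0 fell. Over all 259 tested 20.8% rose and 11.2% fell. The median of the 9 was 0.23 beside 0.09 over all. The rises were 0.44 for mir-92a-1, 0.48 for mir-19a and 0.46 for mir-19b-1, and with library totals alone 0 of the 9 passed and their median was -0.18, beside -0.32 over all. After IL-10, 2 fell, where 2.32% of all did, namely mir-92a-1 at -0.91 and mir-17 at -0.53, while mir-222 rose. Under each of the 3 other scalings 3 fell, with mir-106b (-0.48 under TMM, not called) as the added one. After TGF-β, 1 rose, where 3.47% of all did, namely mir-93 at 0.56, while mir-222 fell. The split of 1 higher and 0 lower became 1 and 1 with DESeq2 size factors, 2 and 1 without mir-6236 and mir-6240, and 0 and 1 with library totals. The fall was that of mir-18a, at -0.93 under TMM (edgeR adjusted p = 0.0693) and from -1.08 to -0.97 under the others, and mir-93 was at 0.41 with library totals.

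Of 10 precursors that restrain the step, 7 were tested. After LPS 3 fell and 1 rose (median 0.27), where 11.2% of all 259 fell and 20.8% rose. Those that fell were mir-322 at -0.77, mir-503 at -1.24 and mir-15a at -0.91, and mir-16-2 rose at 0.41, a call lost under each of the 3 other scalings (0.34 with DESeq2 size factors, 0.32 without mir-6236 and mir-6240 and -0.01 with library totals). After IL-10, 0 of the 7 passed in edgeR's test (median 0.05), though 20 of all 259 precursors did, and with library totals 1 fell, mir-15a at -1.07. After TGF-β mir-322 (-0.69) and mir-503 (-1.40) fell and mir-34a (0.56) rose, where 3.09% of all fell and 3.47% rose. The median was -0.10. The call of mir-34a was lost under each of the 3 other scalings (0.40 to 0.52).

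Other precursors that RefSeq places on the X chromosome were compared because they share a chromosome with the pair. Of the 71 matched by name, 18 were tested. The matching missed others known to be X-linked, among them mir-106a, mir-19b-2, mir-92a-2, let-7f-2 and mir-450b, so its counts and medians are incomplete. After LPS 2 of the 18 rose and 5 fell, where 20.8% of all 259 rose and 11.2% fell. The median was -0.35 beside 0.09 over all, and the largest fall was -1.58 for mir-351. With library totals 1 rose and 9 fell, with a median of -0.76 beside -0.32 over all. Of those missed, mir-19b-2 rose after LPS at 0.44 under TMM, while mir-106a (0.27) and let-7f-2 (0.10) were not called. After TGF-β 1 of the 18 rose and 4 fell (median -0.19), where 3.47% of all rose and 3.09% fell. The falls were mir-223 at -1.70, mir-503, mir-351 at -1.06 and mir-322, and the rise was mir-504 at 2.11. Of these, mir-322 and mir-503 are also on the list of precursors that restrain the step from G1 to S phase. After IL-10, 1 of 18 passed, mir-362 at 1.49 (median 0.12), where 5.41% of all rose and 2.32% fell. Its call was lost with library totals (1.29). Of those missed, mir-92a-2 fell at -0.95 and let-7f-2 rose at 0.44, and mir-106a, mir-19b-2 and mir-450b were not called. The members themselves were at 1.66 and 2.29 after LPS, above the 2 of the 18 that rose. These were mir-2137 at 1.13 and mir-652 at 0.60, the latter not called with library totals (0.18).

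In EVs both members were rare. The counts of mir-221 were 2, 8 and 0 in the control libraries, 6, 5 and 17 with LPS, 1, 3 and 1 with IL-10, and 2, 1 and 1 with TGF-β. Those of mir-222 were 6, 2 and 3 in control, 11, 10 and 16 with LPS, 15, 1 and 3 with IL-10, and 2, 9 and 0 with TGF-β. A 0 in control library 3 allows up to 0.0166% of its counts, and a 0 in TGF-β library 3 up to 0.0199% (3 counts of the total). Neither member passed the filter on low counts in the EV fit, which left 71 precursors, so treatments were compared by exact permutation tests of CPM.

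After LPS, mir-222 in EVs was at 459, 348 and 618 CPM (mean 475), against 378, 125 and 166 in control (mean 223). The highest control library lay within the LPS range. The exact two-sided permutation p was 0.2 (adjusted p = 0.72 over 18 tests). With 3 libraries against 3 this p cannot fall below 0.1, so none of the EV tests could pass 0.05, whatever the size of the difference. From summed counts of 37 and 11, the ratio of LPS to control shares was 2.14, with a 95% counting interval of 1.07 to 4.65 that leaves out the spread between libraries. For mir-221 the ratio was 1.78 (0.840 to 4.11), from 28 and 10 counts.

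The smallest p of the 18 EV tests was 0.1, the lowest value possible (exact permutation, adjusted p = 0.72), for mir-221 in LPS against TGF-β EVs. Those libraries did not overlap on plain CPM, at a mean of 361 against 83.0. On normalised CPM of a fit over all 24 libraries they overlapped, at 305 to 577 against 145 to 410. The share of the 71 precursors tested without overlap in this direction was 21.1%, but on CPM normalised in the EV fit. For the sum of both members, EVs of LPS stood at a mean of 836 CPM against 431 in control (exact p = 0.2). The changes of LPS against control in EVs changed sign when mir-6236 and mir-6240 were left out of the totals, to a log2 ratio of means of -0.57 for mir-221 and -0.02 for mir-222. The share of mir-6236 in LPS EVs was 49.9% to 65.5%, against 73.7% to 75.8% in control EVs.

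**Figure D4:**
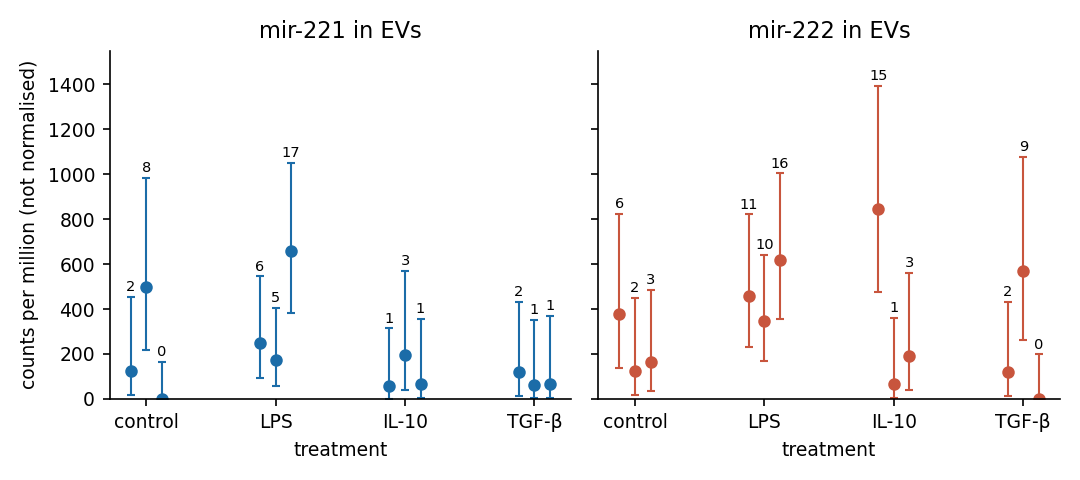
CPM of mir-221 and mir-222 in each of the 12 EV libraries by treatment, with points for libraries and error bars for exact 95% counting intervals (for a count of 0, up to 3 counts of the total), and the raw count printed above each. The intervals are wide, as for the 0 counts of mir-221 in control library 3 and of mir-222 in TGF-β library 3. On this plain CPM the groups overlap in all but mir-221 of LPS against TGF-β.

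EVs were then compared with the cells of the same treatment in 1 fit over the 24 libraries, with 280 precursors tested. After LPS mir-222 was at 650, 610 and 543 normalised CPM in EVs and at 1534, 2039 and 1677 in cells, on the scale of this fit. All 3 EV libraries were below all 3 cell libraries. The log2 difference was -1.56 ± 0.40, or 2.94-fold lower in EVs (edgeR adjusted p = 0.00360). For mir-221 the EV libraries held 355, 305 and 577 and the cell libraries 957, 1254 and 849, again without overlap. Its difference was -1.22 ± 0.41 (edgeR adjusted p = 0.0227). Both members were called lower, where 9.64% of precursors were and 24.3% had groups that did not overlap in this direction, beside a median of 0.00 over all tested. The call of mir-221 was lost with DESeq2 size factors (-0.89), with a filter at a mean of 50 counts (-0.91), without LPS cell library 1 (-0.93) and without LPS cell library 2 (-0.87). The call of mir-222 held in every alternative run and in each library left out, from -1.96 to -1.25 in the latter.

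In the other treatments the comparison turned on few EV counts. In control the log2 difference was 0.21 ± 0.60 for mir-221 (95% interval -1.06 to 1.49) and 0.17 ± 0.58 for mir-222 (-1.07 to 1.41), with overlapping libraries, where 38.6% of precursors were called in either direction. Without control EV library 2, that of mir-221 went to -2.22 and was called lower, as 12.5% of all were with every library. After IL-10 the difference was -1.03 ± 0.72 for mir-221 and 0.27 ± 0.49 for mir-222, neither called, where 43.2% of all were. Without IL-10 EV library 1, which held 15 of the 19 counts, that of mir-222 went to -1.19, and without IL-10 EV library 2 that of mir-221 went to -2.45 and was called lower, as 15.7% of all were with every library.

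After TGF-β mir-222 was called higher in EVs at 1.76 ± 0.65 (edgeR adjusted p = 0.0291, where 25.4% of all were called higher), though EV and cell libraries overlapped. TGF-β EV library 2 held 9 of the 11 counts, and without it the value was -0.92 and not called. It also missed the threshold without TGF-β EV library 1 (1.34), with no filter (0.78) and with only the groups compared (1.92). For mir-221 the difference was -0.11 ± 0.86. The median over all precursors was -0.54, 0.00, -0.80 and -0.74 in control, LPS, IL-10 and TGF-β under TMM, and -2.68, -1.14, -2.81 and -2.99 with library totals, a scaling that places every precursor lower in EVs than TMM does. Read against those medians, the library-total values were -1.96, -2.38, -3.10 and -2.61 for mir-221 and -1.99, -2.76, -1.75 and -0.73 for mir-222. After LPS both members lay below the median under both scalings, and mir-222 lay above it in the other 3 treatments under both.

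**Figure D5:**
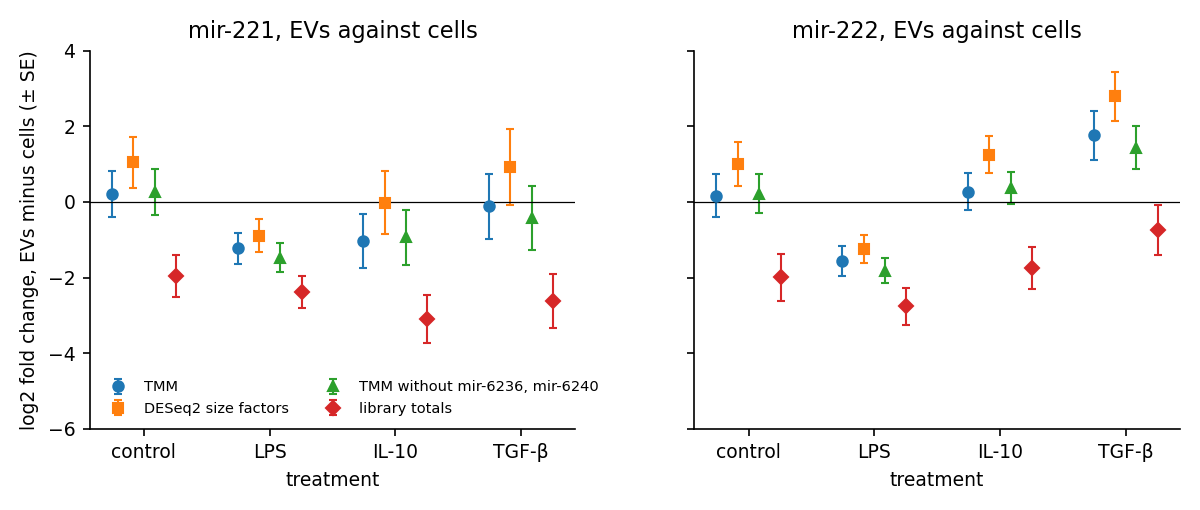
Log2 fold change of EVs against cells (± SE) for each member and treatment under 4 scalings: TMM, DESeq2 size factors, TMM without mir-6236 and mir-6240, and library totals. After LPS all 4 scalings lie below 0 for both members, and in the other treatments the sign depends on the scaling for most. Library totals place all precursors lower in EVs than TMM does. For mir-221 after TGF-β the sign also differs between TMM and DESeq2 size factors.

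The difference between a treatment's effect in EVs and in cells was tested directly. For LPS it was -1.44 ± 0.76 for mir-221 (edgeR adjusted p = 0.209) and -1.73 ± 0.74 for mir-222 (0.129), and neither was called, where 6.07% of all precursors were. The value for mir-222 passed the threshold with DESeq2 size factors (-2.25), with mir-6236 and mir-6240 left out (-2.04), with a filter at a mean of 50 counts (-2.32), with the DESeq2 Wald test (-2.25) and without control cell library 2 (-2.26). That for mir-221 passed with the Wald test (-1.90) and reversed to 0.69 without control EV library 2. For IL-10 it was -1.24 ± 0.96 for mir-221 and 0.10 ± 0.76 for mir-222, and for TGF-β -0.32 ± 1.04 and 1.58 ± 0.83. Neither was called under edgeR, where 0 of 280 precursors were for either cytokine. In LPS EVs, where counts allowed a ratio, the log2 ratio of mir-222 to mir-221 was 0.82, 0.93 and -0.08 (0.56 ± 0.56, SD, n = 3), which differed from that in LPS cells by -0.23 (exact p = 0.8).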

How the data were processed

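Counts per microRNA precursor were used as deposited by the authors, whole numbers without normalization. Aligner, annotation, build and filters: not given in the sources used here. DESeq2 is named without a version, per the submitters' processing notes. The series has 8 deposited tables, of which 6 were read and the other 2 repeat them. The control columns repeated across tables were used once. Group membership came from the labels, and library numbers from the column names, which serve only as names.

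The members and lists were chosen with earlier results of these data known. Named were the members, the 5 most like and 3 most opposite precursors to each, the list members with the smallest p and precursors sharing the seed. Named too were X-linked precursors that the name matching missed. Lists count calls, and no set test was run. Sequences came from RefSeq tables on GRCm38.p6, where 1044 precursors matched by name.

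Models were fitted in R 4.3.3 with edgeR 4.0.16 (limma 3.58.1 is loaded by it), with TMM factors, filterByExpr with a minimum count of 10, the quasi-likelihood F test, and Benjamini-Hochberg adjustment over all precursors tested, with calls at an adjusted p under 0.05. Cells and EVs had 8 residual degrees of freedom each and the joint fit 16. SE came from the F statistic, and 95% intervals of fold changes used these residual degrees of freedom alone. The F test draws on more degrees of freedom, so the intervals are wider than its p-values imply. As neither member passed the EV filter, the planned count test was replaced there by exact two-sided permutation tests of CPM (SciPy 1.17.1). Intervals of shares are exact 95% Clopper-Pearson intervals, and a count of 0 has an upper limit of 3 counts of the total. Scripts were tested on simulated data. Alternatives were DESeq2 1.42.0 size factors and Wald test, library totals, leaving out mir-6236 and mir-6240, no filter, a mean of 50 counts, a robust prior, only the groups compared, a replicate block and each library left out.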

Additional observations from a re-analysis of the deposited data

How the results depend on the processing

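In cells, of 108 member values under other settings 101 kept their direction and call, and of 72 with a library left out 71 did. The exception was mir-221 after TGF-β, which became called with DESeq2 size factors (-0.51), library totals (-0.61), mir-6236 and mir-6240 left out (-0.48), no filter (-0.55), a mean of 50 counts (-0.53), the Wald test (-0.51) and only the groups compared (-0.50), and ranged from -0.56 to -0.39 with libraries left out. The number of precursors called for LPS in cells rose from 83 to 131 with library totals, and that for IL-10 ranged from 5 to 21 with libraries left out, against 20. EVs minus cells with library totals gave -1.96, -3.10 and -2.61 for mir-221 and -1.99, -1.75 and -0.73 for mir-222 in control, IL-10 and TGF-β. Without a filter they were -0.13 for mir-221 and -0.15 for mir-222 in control, and for mir-222 -0.16 with IL-10 and 0.78 with TGF-β. For mir-221 after LPS, size factors gave -0.89 and a mean of 50 counts -0.91. For mir-221 after TGF-β, size factors gave 0.93, a mean of 50 counts 0.91, the Wald test 0.93 and only the groups compared 0.03. For mir-222 the Wald test gave 1.29 after IL-10 and only the groups compared 1.92 after TGF-β. With libraries left out, EVs minus cells ranged for mir-221 from -2.22 to 0.63 in control, -1.74 to -0.87 with LPS, -2.45 to -0.51 with IL-10 and -1.27 to 0.30 with TGF-β. For mir-222 the ranges were -1.02 to 0.52 in control, -1.19 to 0.65 with IL-10 and -0.92 to 2.14 with TGF-β. The effect of LPS in EVs minus that in cells was, for mir-222, -2.25 with size factors and with the Wald test, -2.04 without mir-6236 and mir-6240 and -2.32 at a mean of 50 counts, and for mir-221 -1.90 with the Wald test. That of IL-10 for mir-222 was -0.01 with no filter. These effects ranged, with libraries left out, from -2.0 to 0.69 (LPS), -2.05 to 0.77 (IL-10) and -1.20 to 1.31 (TGF-β) for mir-221, and from -2.26 to -0.86, -0.80 to 0.87 and -0.48 to 2.03 for mir-222. Within EVs, leaving out mir-6236 and mir-6240 gave -0.57 (mir-221) and -0.02 (mir-222) for LPS minus control, and for mir-222 -0.14 for TGF-β minus control and -0.35 for LPS minus IL-10. With no filter, LPS minus control was -0.11 for mir-221 and LPS minus IL-10 was -0.12 for mir-222. With libraries left out, mir-221 ranged from -1.79 to 0.74 (IL-10 minus control), -1.91 to 0.40 (TGF-β minus control) and -0.46 to 0.70 (IL-10 minus TGF-β). For mir-222 the ranges were -0.79 to 1.34 (IL-10 minus control), -1.90 to 0.66 (TGF-β minus control), -0.13 to 1.89 (LPS minus IL-10) and -0.83 to 2.62 (IL-10 minus TGF-β). The summed share in EVs without mir-6236 and mir-6240 was 0.260% in control, 0.215% with LPS, 0.238% with IL-10 and 0.164% with TGF-β. The cause of these changes was not tested. Library numbers gave no clear sign of pairing, a question that 3 libraries a group cannot settle. Correlations of same-numbered cell libraries ran from -0.237 to 0.338, with 4 of 12 libraries correlating best with their own number. In EVs 6 of 12 did, and with cells and EVs together 9 of 24. A fit with a replicate block changed no member's call (mir-222 after LPS 2.28, mir-221 0.39 after IL-10 and -0.45 after TGF-β). In EVs, depth limits the members to at most 17 counts in a library, and a control share of 0 allows up to 0.0166%.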
